A study of Mus musculus with 3 samples.

Results

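MiR-128-3p is the mature microRNA (miRNA) that the study is about, and its level was followed here in small RNA libraries from mouse hearts of 3 ages. Its rows were chosen as those of accession MIMAT0000140, whatever suffix follows. That this accession is miR-128-3p was given at the outset, and neither the count table nor the reference tables pair accessions with names, so it was not checked here. This found 2 of the 2049 rows of the count table, belonging to 1 of 1900 mature accessions. The rule itself uses the accession and no measured value, although it was set with earlier results of these data known. The hearts came from wild-type C57BL/6 mice on postnatal day 1 (P1), day 7 (P7) or day 28 (P28), with 1 library for each age and no treatment named. The labels call the tissue hearts, while the text of the study speaks of ventricles. The number of hearts behind a library and the sex of the mice in it are not given in the sources used here, though the study used mice of both sexes overall. As no age has a replicate, the variation from heart to heart is unknown, and no difference below has a replicate check.

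A miRNA is cut from a hairpin precursor and loaded into an Argonaute protein, where bases 2 to 8, the seed, pair with sites in the 3′ untranslated regions of messenger RNAs and lower their output. MiR-128 is best known as a miRNA of the nervous system, and it is made from a pair of genes that both lie inside protein-coding genes. The weeks after birth are the time in which mouse cardiomyocytes, the muscle cells of the heart, stop dividing, and the study profiled these ages to look for miRNAs with a part in heart growth after birth. Its target named in the study is Suz12, a subunit of the polycomb repressive complex that methylates histone H3.

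The mature sequence and both precursors are shown because the 2 rows of the table stand for copies of the same 21 bases. Sequences were read from RefSeq on GRCm38.p6, the assembly also called mm10. The first line has the seed in capitals, and the hairpin lines have miR-128-3p in capitals. The arm from the other side of each hairpin, the 5p arm, is shown in lower case.
miR-128-3p: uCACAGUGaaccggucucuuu
Mir128-1 hairpin: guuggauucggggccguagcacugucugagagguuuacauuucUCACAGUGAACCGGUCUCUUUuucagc
Mir128-2 hairpin: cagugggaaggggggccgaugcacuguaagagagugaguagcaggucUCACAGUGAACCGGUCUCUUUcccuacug
miR-128-1-5p: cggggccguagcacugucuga
miR-128-2-5p: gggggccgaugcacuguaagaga

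Mir128-1 lies at chr1:128202361-128202430 on the plus strand, with miR-128-3p at chr1:128202404-128202424. It sits in intron 19 of 26 of the transcript that GENCODE M21 lists first for R3hdm1, and touches no exon in the 2 protein-coding transcripts of R3hdm1 that span it. Mir128-2 lies at chr9:112118636-112118711 on the minus strand, with miR-128-3p at chr9:112118644-112118664. It sits in intron 17 of 18 of the first-listed transcript of Arpp21, and touches no exon in the 7 protein-coding transcripts of Arpp21 that span it. Both hairpins have the strand of their host gene. The hairpins were identical at 55 of 77 aligned columns (71.4%), and the 5p arms at 16 of 23 (69.6%). Around the mature sequence the copies share 2 further bases on the 5′ side and 0 on the 3′ side, where Mir128-1 continues with U and Mir128-2 with C. A read that covers the 21 bases and no more therefore belongs equally to both copies. The count table does not say which of its rows belongs to which hairpin, so the rows are called first and second here, in table order. The 5p arms could not be looked up in the table, since no source used here pairs their names with accessions.

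Other miRNAs were searched for the same seed. Among 1679 names of mature mouse miRNAs in the RefSeq table, 0 others carry the same letters at bases 2 to 8. The letters occur 1 base later, at bases 3 to 9, in miR-27a-3p (chr8:84208727-84208747, plus strand) and miR-27b-3p (chr13:63300760-63300780, plus strand). They occur 1 base earlier in miR-216a-3p (chr11:28757058-28757079, plus strand). These are shown, with the shared letters in capitals, because they hold the same 7 letters as the seed of miR-128-3p, shifted by 1 base. Their own bases 2 to 8 differ from that seed. Their levels are not given, as their names were not paired with accessions either.
miR-27a-3p: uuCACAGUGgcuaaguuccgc
miR-27b-3p: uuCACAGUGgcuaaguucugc
miR-216a-3p: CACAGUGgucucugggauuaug

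The complement of the seed, CACTGTG in DNA letters on the transcript strand, was found 2 times in the 1933 bases of the longest annotated 3′ untranslated region of Suz12. Both matches lie in exon 16 of 16. They begin 801 and 1024 bases after the stop codon, at chr11:80032991-80032997 and chr11:80033214-80033220 on the plus strand of GRCm38. The capitals mark the match in each window, and G follows it in both. Of 1419 genes whose longest annotated 3′ untranslated region is within 10% of that length, Suz12 included, 25.4% hold the same letters anywhere in that region. The share with 2 or more matches was not computed. The match describes the sequence only, as no messenger RNA was measured in these libraries.
Suz12 first match (chr11:80032976-80033003): agattcagaagatgcCACTGTGgggagg
Suz12 second match (chr11:80033199-80033226): tattccagctccaagCACTGTGgttgaa

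The values are raw read counts, which were divided by the total of the library and are expressed as CPM, the reads out of every 1000000 of that library. The libraries held between 1944237 and 2842526 counts, and 3 reads corresponded to between 1.06 and 1.54 CPM. Between 42.6 and 45.3% of the counts fell on the most abundant mature accession, and between 4.04 and 6.72% on 14 rows of hairpin precursors. Between 606 and 712 mature accessions had at least 1 read in a library. Whether the libraries carry the miRNAs that define heart muscle, or those of nerve, blood or other cells, could not be read by name, since the table gives accessions only.

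MiR-128-3p differed between P1 and P7 by less than counting error, and made up a smaller share of the library at P28. With its rows summed, it had 1293 reads at P1, which is 665 CPM (95% Wilson interval 630 to 702). It had 1627 reads at P7, which is 660 CPM (629 to 693). It had 1419 reads at P28, which is 499 CPM (474 to 526). The intervals of P1 and P7 overlapped almost entirely, and that of P28 lay below both. All of these intervals cover counting error alone, which at these read numbers was between 2.48 and 2.78% of the level. They hold no variation between hearts or between library preparations. In RNA from whole tissue, fewer cells of a type and less of the miRNA in each cell cannot be told apart.

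**Figure D1:**
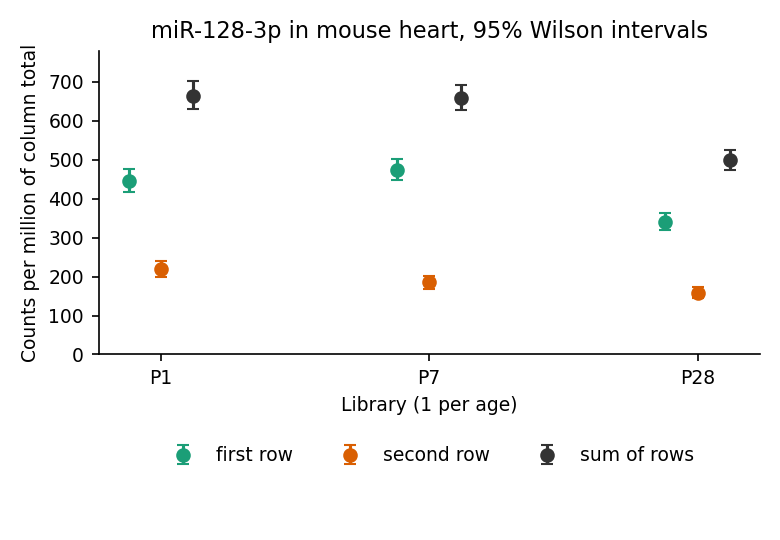
Level of miR-128-3p in CPM by column total (y axis) in the P1, P7 and P28 heart libraries (x axis), for the first row, the second row and their sum, with 95% Wilson intervals as bars. The sum is at 665 and 660 CPM at P1 and P7 and at 499 CPM at P28, and the first row is above the second in every library.

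The first row held the larger part of these reads. At P1 its 868 reads gave 446 CPM (interval 418 to 477). At P7 its 1171 reads gave 475 CPM (448 to 503), and at P28 its 968 reads gave 341 CPM (320 to 363). Its highest level was at P7, although the P1 and P7 intervals overlapped. In the second row, 425 reads gave 219 CPM at P1 (199 to 240). At P7 it had 456 reads or 185 CPM (169 to 203), and at P28 it had 451 reads or 159 CPM (145 to 174). By library totals its levels thus fell in the order of age. The level intervals overlapped between P1 and P7 and between P7 and P28, although the intervals of both ratios, given below, excluded 0. Both rows had their lowest level at P28 by library totals. Neither this nor the order of age in the second row held under the TMM and DESeq2 scalings described below.

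The first comparison, P7 against P1, asked whether miR-128-3p differs between the first day and the first week. The log2 ratio of the summed rows was -0.011, with a 95% Clopper-Pearson interval from -0.12 to 0.095. As a fold this is 0.992 (0.922 to 1.07), so by library totals counting error left room for a level at most 1.07 times that of P1. Without the 10 most abundant rows in the totals this limit was 1.18 times. The ratio of the first row was 0.089 (-0.039 to 0.22) and that of the second row was -0.24 (-0.44 to -0.047). By library totals the rows of the same mature sequence thus had opposite signs, and the interval of the second alone excluded 0. This depended on the scaling. Without the 10 most abundant rows in the totals, the first row had 0.23 (0.11 to 0.36) and the second -0.095 (-0.29 to 0.099), so that the interval of the first alone excluded 0. Under DESeq2 size factors the first row was at -0.00071 (-0.13 to 0.13) and the second at -0.33 (-0.52 to -0.14), with no opposite sign. Neither row nor their sum reached a 2-fold difference.

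For reference, 279 mature accessions averaged 10 CPM or more over the 3 libraries, each with its rows summed, and were compared in the same way. Some of them share their mean CPM and log2 ratios with another, and each was counted, also in the ranks and library totals. Of the 279, 11.1% exceeded a 2-fold increase and 11.5% a 2-fold decrease at P7. Their median log2 ratio was 0.029, and the middle 50% lay between -0.51 and 0.59. MiR-128-3p stood near the centre of this distribution, with 132 of the other 278 accessions below it and 146 above. In size, only 2 of the 278 had a ratio closer to 0 by library totals. This place depends on the scaling, as the ratio was -0.10 under DESeq2 size factors and 0.13 without the 10 most abundant rows in the totals. The scatter of the log2 ratios shows miR-128-3p beside the median on the horizontal axis.

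The second comparison, P28 against P1, spans the whole period. The log2 ratio of the summed rows was -0.41 (-0.52 to -0.30), or 0.751-fold (0.696 to 0.810). Both rows pointed the same way here, with -0.39 (-0.52 to -0.26) for the first and -0.46 (-0.66 to -0.27) for the second. MiR-128-3p did not reach a 2-fold difference, whereas 42.7% of all accessions compared were lower, and 13.6% higher, by that much or more. The median accession had a log2 ratio of -0.74, and 159 of the other 278 lay below miR-128-3p. Its ratio was thus 0.32 above the median on the log2 scale.

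The third comparison, P28 against P7, gave nearly the same value. The log2 ratio of the sum was -0.40 (-0.51 to -0.30), or 0.757-fold (0.704 to 0.813). The first row had -0.48 (-0.60 to -0.36) and the second had -0.22 (-0.41 to -0.030). Again no value reached 2-fold, against 42.7% of accessions that were lower and 2.87% that were higher. The median was -0.79, miR-128-3p was 0.39 above it, and 170 of the other 278 accessions lay below. This comparison shares its P28 library with the second and its P7 library with the first, so the 3 are not independent of each other.

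**Figure D2:**
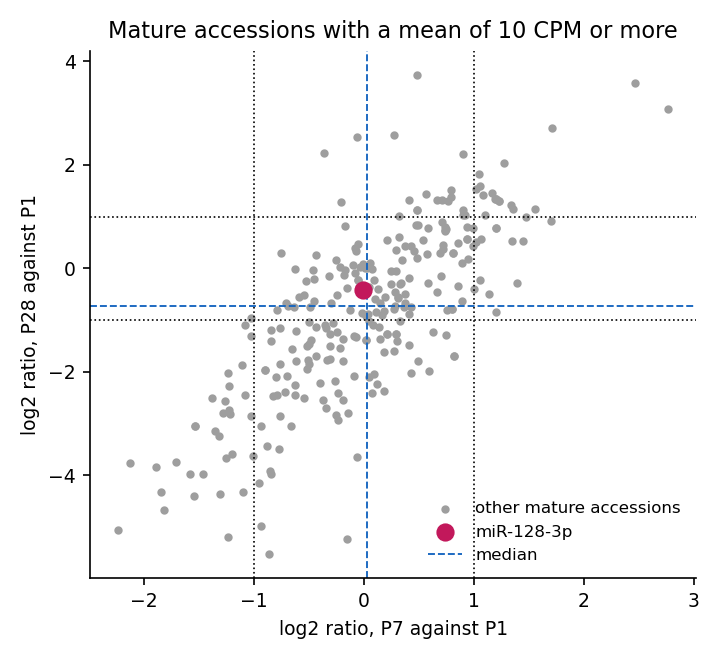
Log2 ratio of P28 against P1 (y axis) plotted over that of P7 against P1 (x axis) for the 279 mature accessions that averaged 10 CPM or more, with miR-128-3p as the large point, medians as dashed lines and 2-fold differences as dotted lines. MiR-128-3p is at -0.011 and -0.41, inside all 2-fold lines, and above the median of -0.74 on the vertical axis.

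The direction at P28 depended on how the libraries were scaled. Library totals treat a level as a share of all reads. TMM scaling and DESeq2 size factors assume in their own ways that most miRNAs keep their level, and both moved the median accession towards 0. Under TMM, the log2 ratio of miR-128-3p became 0.15 (0.037 to 0.26) for P28/P1 and 0.19 (0.089 to 0.30) for P28/P7. Under DESeq2 size factors it became 0.30 (0.19 to 0.41) and 0.40 (0.30 to 0.51). The sign thus turned from lower to higher in both comparisons, with intervals that excluded 0 on either side. With the 10 most abundant rows taken out of the library totals, the values were 0.073 (-0.037 to 0.18) and -0.061 (-0.17 to 0.042), and neither interval excluded 0. Leaving the hairpin rows out of the totals gave -0.45 (-0.56 to -0.34) and -0.41 (-0.52 to -0.31). Leaving out the most abundant accession alone gave -0.35 (-0.46 to -0.24) and -0.33 (-0.44 to -0.23). Under none of the 6 scalings did miR-128-3p reach a 2-fold difference in either direction.

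**Figure D3:**
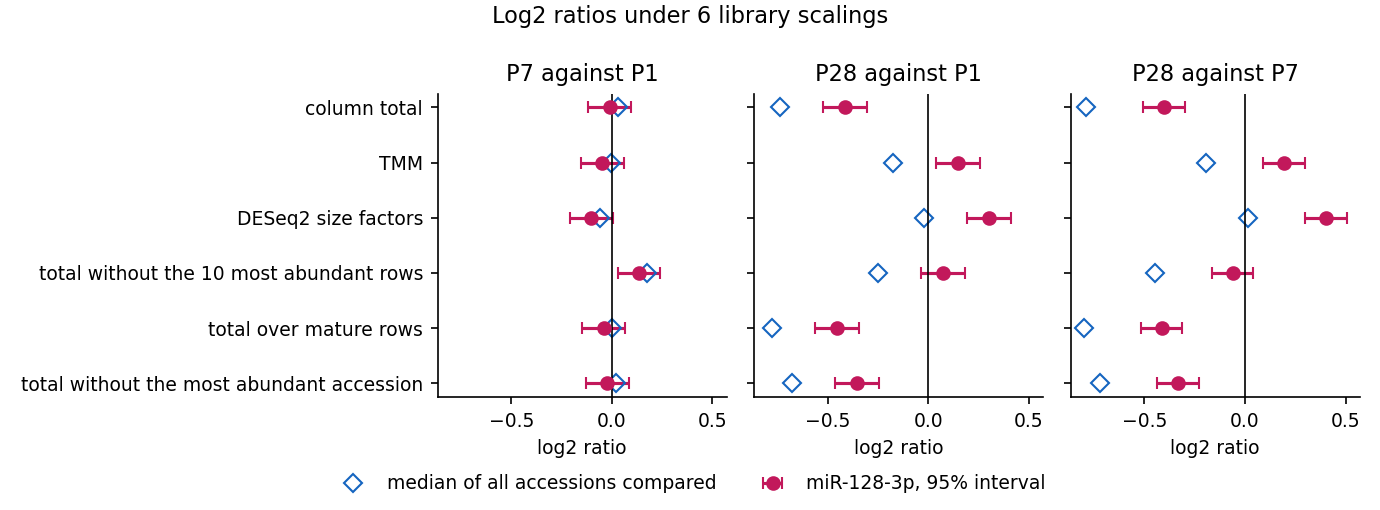
Log2 ratio of miR-128-3p (filled points, 95% Clopper-Pearson intervals as bars) and of the median of the 279 accessions (open diamonds) under 6 library scalings (rows), 1 panel for each comparison. At P28, miR-128-3p lies below 0 with the column total, at -0.41 against P1, and above 0 under TMM and DESeq2 size factors, at 0.15 and 0.30, while it stays right of the median in every row of both P28 panels.

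The scalings shifted all accessions together. TMM moved the median of P28/P1 by 0.56 and that of P28/P7 by 0.60 on the log2 scale. DESeq2 size factors moved them by 0.71 and 0.80, and leaving the 10 leading rows out of the totals did so by 0.49 and 0.34. Of the accessions past 2-fold in the P28/P1 ratio, 24.2% were higher by library totals, against 43.8% under TMM and 41.1% without the 10 rows, and DESeq2 size factors gave 77 higher and 77 lower. For P28/P7 the shares by library totals, TMM, DESeq2 size factors and without the 10 rows were 6.30, 32.3, 43.9 and 15.9%. The number of accessions with a ratio below or above that of miR-128-3p does not depend on the scaling. Each scaling adds the same amount to every log2 ratio of a comparison. Its place by distance from 0 does depend on the scaling. The distances of 0.32 and 0.39 above the median are therefore the values that hold under each of the 6. They depend on which accessions are compared, here those averaging 10 CPM or more, and no other filter was tried for them.

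The P7 against P1 comparison moved less. The log2 ratio of miR-128-3p was -0.047 (-0.15 to 0.060) under TMM and -0.10 (-0.21 to 0.0055) under DESeq2 size factors. Without the 10 most abundant rows in the totals it was 0.13 (0.028 to 0.24), or 1.10-fold, with an interval just above 0. That setting moved the median of all accessions by 0.15, and the median itself was 0.17. Of the accessions past 2-fold in this comparison, 49.2% were higher by library totals and 65.2% without the 10 rows.

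Ranks within a library need no scaling. MiR-128-3p was at rank 58 of the 657 mature accessions detected in the P1 library, at rank 67 of 712 in the P7 library and at rank 64 of 606 in the P28 library. It was above 91.2, 90.6 and 89.4% of the detected accessions at these ages. Its level was 6.84 times the median of the compared accessions at P1, 6.75 times at P7 and 9.10 times at P28. The median itself was 97.2, 97.7 and 54.9 CPM in the same order. The larger multiple at P28 thus came with a lower median, while miR-128-3p was itself at its lowest CPM.

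**Figure D4:**
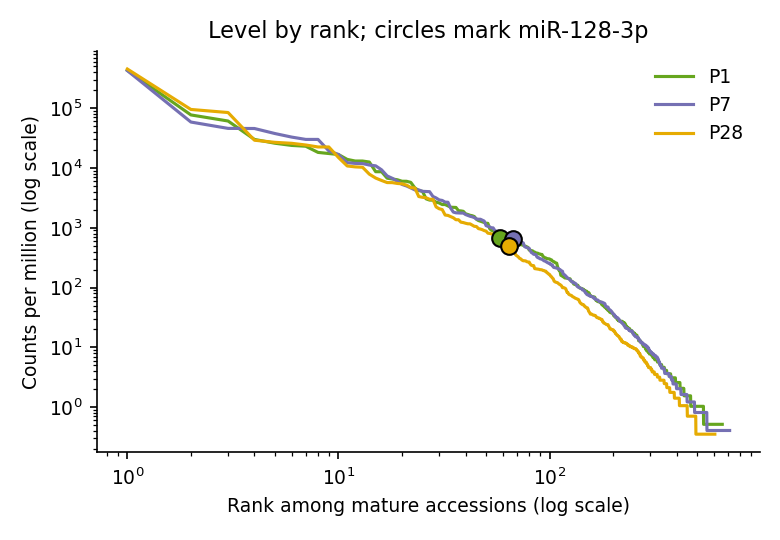
Level in CPM (y axis, log scale) over rank among mature accessions (x axis, log scale) in the P1, P7 and P28 libraries, with miR-128-3p as a circle on each curve. The circles lie close together, at ranks 58, 67 and 64.

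The level intervals of neighbouring ranks often overlapped. At P1 the accession directly above miR-128-3p was at 704 CPM (668 to 742) and the one directly below at 647 CPM (612 to 684). At P7 the neighbours were at 709 CPM (677 to 743) and 638 CPM (607 to 670), and at P28 at 509 CPM (484 to 536) and 479 CPM (454 to 505). Each of these 6 intervals overlapped that of miR-128-3p in the same library. Levels whose separate intervals overlap can still differ by more than counting error, and no test of these differences was made. In all, 5 accessions at P1, 4 at P7 and 5 at P28 had such overlapping intervals, so its rank may be uncertain by a few places from counting alone. At P7 the accession next above and the one above that both had 1749 reads. The ranks and these numbers may therefore count the same reads under more than 1 accession.

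The reads of miR-128-3p were divided unevenly between its rows. In the P1 library, 67.1% of them fell in the first row (95% Wilson interval 64.5 to 69.6). This share was 72.0% in the P7 library (69.7 to 74.1) and 68.2% in the P28 library (65.7 to 70.6). The odds of a read falling in the first row were 1.26 times as high at P7 as at P1 (95% exact conditional interval 1.07 to 1.48). Between P28 and P1 this ratio was 1.05 (0.892 to 1.24), and between P28 and P7 it was 0.836 (0.713 to 0.980). The P7 library thus stood apart from both others, whereas P1 and P28 were not separable at this depth. The gap between the log2 ratios of the rows, first minus second, was 0.33 for P7/P1, 0.072 for P28/P1 and -0.26 for P28/P7.

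Such splits were common in the table. Of 23 mature accessions with exactly 2 rows and an average of 100 CPM or more, 10 had between 45 and 55% of their pooled reads in the first row and 13 did not. Among the 10, 2 had the same percentages in every library, and each was counted. MiR-128-3p was among the 13, with 69.3%. In all 13 the split was farthest from even at P7, miR-128-3p included. Its share of the first row ranged over 4.84 percentage points between libraries, against a median of 5.93 and a range from 0.41 to 28.2 in the other 22. Of the other 12 uneven accessions, 11 had a wider range than miR-128-3p. How reads that match both copies were assigned is not given in the sources used here, and its part in the split was not tested.

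**Figure D5:**
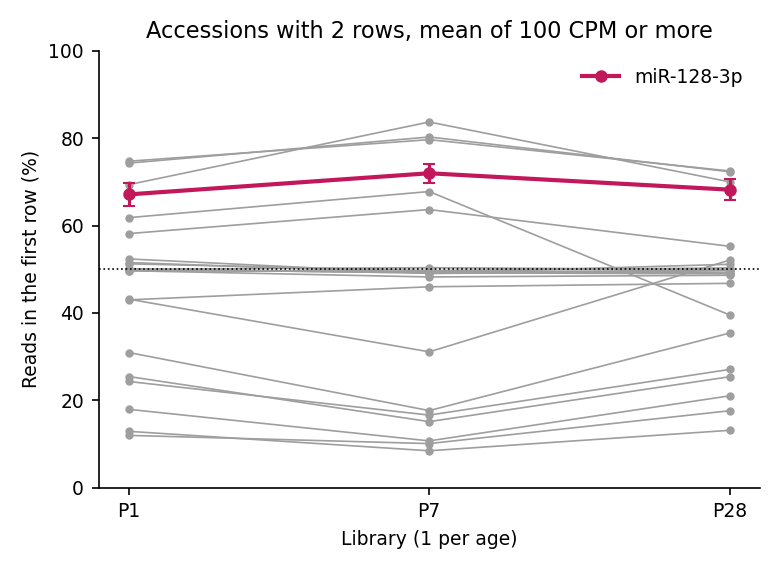
Percentage of an accession's reads that fell in its first row (y axis) in the P1, P7 and P28 libraries (x axis), 1 line for each of 23 accessions with 2 rows, with miR-128-3p as the thick line and its 95% Wilson intervals as bars. The miR-128-3p line goes from 67.1 to 72.0 and back to 68.2%, a smaller excursion than in 11 of the other 22.

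Accessions with a course like that of miR-128-3p were sought by the distance between their log2 ratios, P7 against P1 and P28 against P1, over the same 3 libraries. Of 278 accessions, 11 lay within a distance of 0.25, and the median distance was 1.32. The nearest was MIMAT0004620, at a distance of 0.067, with levels of 82.3, 79.9 and 64.4 CPM at the 3 ages in order. The next was MIMAT0000230, at 0.075, with 2598, 2684 and 2015 CPM. Both were thus near level between P1 and P7 and lower at P28 by library totals, at levels far below and above that of miR-128-3p. The 5 nearest lay within 0.14. With only accessions of at least 100 CPM admitted, 1 of these 5 remained among the 5 nearest. A likeness over 3 libraries is a description and carries no test.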

How the data were processed

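Small RNA libraries from wild-type hearts at P1, P7 and P28 were made with a NEBNext kit. The deposited table holds raw read counts per miRBase accession, made by the authors without normalization. The submitters' processing notes name bcl2fastq, TopHat and mm10, and the methods state counting with Bioconductor packages for RNA-seq in general. The miRBase release, the use of strand and the placing of reads with several origins are not given in the sources used here.

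Each column was matched to an age by the code that opens its name. CPM were computed from the column total, for each row and for the sum of an accession's rows. Log2 ratios had 0.5 reads added. Mature accessions averaging 10 CPM or more were compared, and a difference of at least 2-fold was counted. Level intervals are Wilson and ratio intervals are Clopper-Pearson at 95%, from counts without molecular identifiers. The quasi-likelihood test of edgeR needs replicates and could not be fitted, so no p-value is given. Intervals and calls were tested on simulated counts that varied by counting error alone, as the intervals assume. The simulation held no variation between hearts or library preparations. The planned lists held 49 names, of which 0 could be paired with an accession, and no list result is given. Named accessions are miR-128-3p and the 2 nearest to it of the 5 that the rule for likeness gave. The members, lists and settings were chosen with earlier results of these data known. Tools were edgeR 4.0.16 (TMM), DESeq2 1.42.0 (size factors), R 4.3.3, Python 3.11.15, numpy 2.4.6, pandas 2.3.3, scipy 1.17.1 and matplotlib 3.10.9.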

Additional observations from a re-analysis of the deposited data

How the results depend on the processing

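With 1 library for each age, variation between hearts was not measured, and scaling decided the sign of miR-128-3p at P28. No paired analysis was possible because the ages have a single library each, and no replicate could be left out for the same reason. The log2 P28/P1 ratio of the summed rows turned from -0.41 to 0.15 under TMM, 0.30 under DESeq2 size factors and 0.073 without the 10 most abundant rows in the totals. The P28/P7 ratio turned from -0.40 to 0.19 and 0.40 under the first 2 of these, and moved to -0.061 without the 10 rows. The P7/P1 ratio moved to 0.13 without the 10 rows. For the first row, P28/P1 turned to 0.17, 0.32 and 0.096 in that order, and P28/P7 to 0.12 and 0.32 under TMM and DESeq2 size factors. Without the 10 rows, its P7/P1 ratio moved from 0.089 to 0.23 and its P28/P7 ratio from -0.48 to -0.14. For the second row, P28/P1 turned to 0.098, 0.25 and 0.025, and P28/P7 to 0.37, 0.58 and 0.12. These shifts follow from the library sizes that each setting uses. A pseudocount of 5 reads, totals without hairpin rows and totals without the most abundant accession kept the sign of each summed ratio. The last of these was chosen after seeing the data.

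By library totals, the accessions past 2-fold numbered 31 higher and 32 lower for P7/P1, 38 and 119 for P28/P1, and 8 and 119 for P28/P7. These numbers moved by over 1.5 times as follows. Under TMM, P28/P1 had 64 higher, and P28/P7 had 31 higher and 65 lower. Under DESeq2 size factors, P28/P1 had 77 of each and P28/P7 had 43 higher and 55 lower. Without the 10 rows, 60 were higher for P28/P1 and 17 for P28/P7. A different filter also changes how many accessions are compared, so its counts alone do not show whether the share past 2-fold changed. At 100 CPM or more, 133 accessions besides miR-128-3p were left, against 278 at 10 CPM or more. Shares under other filters were not computed. Lowering the filter to 1 CPM gave 67 higher and 71 lower for P7/P1, 76 and 211 for P28/P1, then 39 and 204 for P28/P7. In the same order, a filter of 100 CPM gave 17 and 14, then 19 and 46, then 2 and 44. Without a filter the pairs were 208 and 188, then 172 and 357, then 111 and 358. Counting from 1.5-fold, 70 were higher and 65 lower for P7/P1, and 22 were higher for P28/P7. Counting from 4-fold, the pairs were 2 and 2, then 9 and 64, then 4 and 44. When every row stood on its own, the rank of the summed miR-128-3p was 76, 90 and 84 in the P1, P7 and P28 libraries.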

Other observations

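No other row of the table had counts within 5% of those of the first row, the second row or the sum of miR-128-3p in all 3 libraries. At that tolerance, no single row thus repeated its counts as a whole. Reads counted again in part, or in a row that also holds other reads, would not be found this way. Among the 279 accessions compared, some did share their mean CPM and log2 ratios with another.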
